A study of Danio rerio with 5 samples.

Results

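Solute carriers of families 26 and above were followed in zebrafish (Danio rerio) embryos after knockdown of the GATA factors gata5 and gata6. A gene was included if its symbol begins with slc and a family number from 26 upward, and if at least 1 of its probes exceeded background clearly on all arrays of the gata5/6 morpholino group, of the control group, or of both. The array carried 94 such genes on 176 probes, and 80 genes (148 probes, 24 families) met the signal condition, among 10791 genes tested in all. The gata5/6 morpholino group (2 arrays) consisted of whole embryos that had received 6.25 ng of a gata5 morpholino together with 1.25 ng of a gata6 morpholino. The control morpholino group (3 arrays) had received 7.5 ng of control morpholino. All embryos received 1 nl at the 1-cell stage and were harvested at 14 h post fertilization, and the series describes the comparison as one of expression after gata4, gata5 and gata6 knockdown. No gata4 morpholino was injected. Morpholinos are synthetic oligonucleotides that block translation or splicing of a chosen RNA, and no genetic mutant was included. Strain, number of embryos per sample and separate clutches are not given in the labels, so the spread behind the p-values is that of these samples and may be technical.

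Solute carriers are membrane proteins that move ions, metals, nutrients and metabolites across the cell surface or across the membranes of the Golgi apparatus, endoplasmic reticulum, lysosomes and vesicles. The families above 26 include anion exchangers (SLC26), fatty acid transport proteins (SLC27), nucleoside transporters (SLC28 and SLC29), exporters and importers of zinc (SLC30 and SLC39), nucleotide sugar transporters of the Golgi (SLC35), and amino acid transporters (SLC38 and SLC43). Several of them serve the early embryo, which lives on its yolk. Ferroportin (slc40a1), for example, releases iron from cells, and zebrafish mutants that lack it become anaemic.

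Signals were scaled so that 100 is the 75th percentile of an array, and all values per array below are on that linear scale. Changes are log2 differences, gata5/6 morpholino minus control morpholino, from limma with Benjamini-Hochberg adjustment over all 10791 genes, and a gene passed at an adjusted p under 0.05. Each gene is represented by its brightest probe on average, and levels are not compared between genes because probes differ in brightness. On each array 70.1% to 71.1% of probes were well above background and none was saturated. Both gata5/6 morpholino arrays lay on slide 2 and scan 2 and the control arrays on slide 1 and scan 1, so slide or scan and treatment cannot be told apart. The gata6 signal was 4437 and 3967 on the gata5/6 morpholino arrays, against 588, 575 and 584 on the control arrays. It was 4425 and 5183 against 1220.2, 1211 and 1205 for gata5, and 26.2 and 25.1 against 40.8, 40.2 and 39.2 for gata4. The rises of gata5 and gata6 RNA do not check the injection, since a morpholino need not lower its target's RNA. The lower gata4 signal (log2 change -0.64, limma adjusted p = 0.00519) does not check it either, since no gata4 morpholino was injected. Markers of muscle, nervous system, epidermis, notochord and hatching gland were measured in both groups. Of those 18 genes 1 passed, tp63 at -0.47, where 15.0% of all genes tested passed. None of 4 ionocyte and 3 neural crest markers passed (limma), while 1 of 3 erythroid markers (hbae1.1, 0.61) and 1 of 3 endoderm markers (hhex, 0.55) were higher. Beside that share of 15.0%, counts from lists of 3 or 4 genes say little. Among 4 heart markers, hand2 (193 and 157 on gata5/6 morpholino arrays against 374, 357 and 391.96 on control arrays) and tnnt2a (6.21 and 4.65 against 54.2, 56.9 and 49.6) were lower. The other two, nkx2.5 and tbx20, were well above background on all 3 control arrays and on neither gata5/6 morpholino array, so they entered through the controls alone. The sum of the 4, mostly hand2, was 164 to 201 on gata5/6 morpholino arrays and 435 to 461 on control arrays. For 3 yolk syncytial layer and yolk-related markers the sums, mostly apobb.1, were 9493 to 10052 and 14799 to 15393, with 2 of the markers lower. For 5 pronephros markers they were 1096 to 1222 and 901 to 985, a higher sum that comes from cdh17 (392.20 and 445 against 83.6, 88.8 and 75.7). Of the other 4 markers lhx1a (-0.68) and hnf1bb (-0.56) fell, pax2a (-0.17) and hnf1ba (-0.12) did not pass, and the median of the list was -0.17. In whole embryos, fewer cells of a type and less RNA per cell cannot be told apart, and the part of these tissues in the results below was not tested.

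After gata5/6 morpholino, 13 of the 80 genes were higher and 10 lower, so 28.8% passed, against 15.0% of all genes tested. Without gata5/6 morpholino replicate 2 the shares were 43.2% and 47.8%, so the higher share of members did not hold there. By direction the shares were 16.3% higher and 12.5% lower, against 7.84% and 7.17% of all genes. The median log2 change of the 80 genes was -0.02, beside 0.04 for all genes. Solute carriers of families 1 to 24 gave the same count, with 11 higher and 12 lower of 80. Of the 23 members that passed, 5 changed at least 2-fold (6.25% of the 80 genes, against 4.70% of all genes), namely slc38a3a, slc35c1, slc26a1 and slc48a1b, which rose, and slc52a3-1, which fell. The other 18 changed by less than 2-fold. The 57 genes that did not pass lay within 0.69 of 0 on the log2 scale, and 46 of them within 0.25. The 2 gata5/6 morpholino arrays did not overlap the 3 control arrays for 44 of the 80 members (55.0%), against 50.8% of all genes tested. These 44 were the 23 that passed and 21 that did not.

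**Figure D1:**
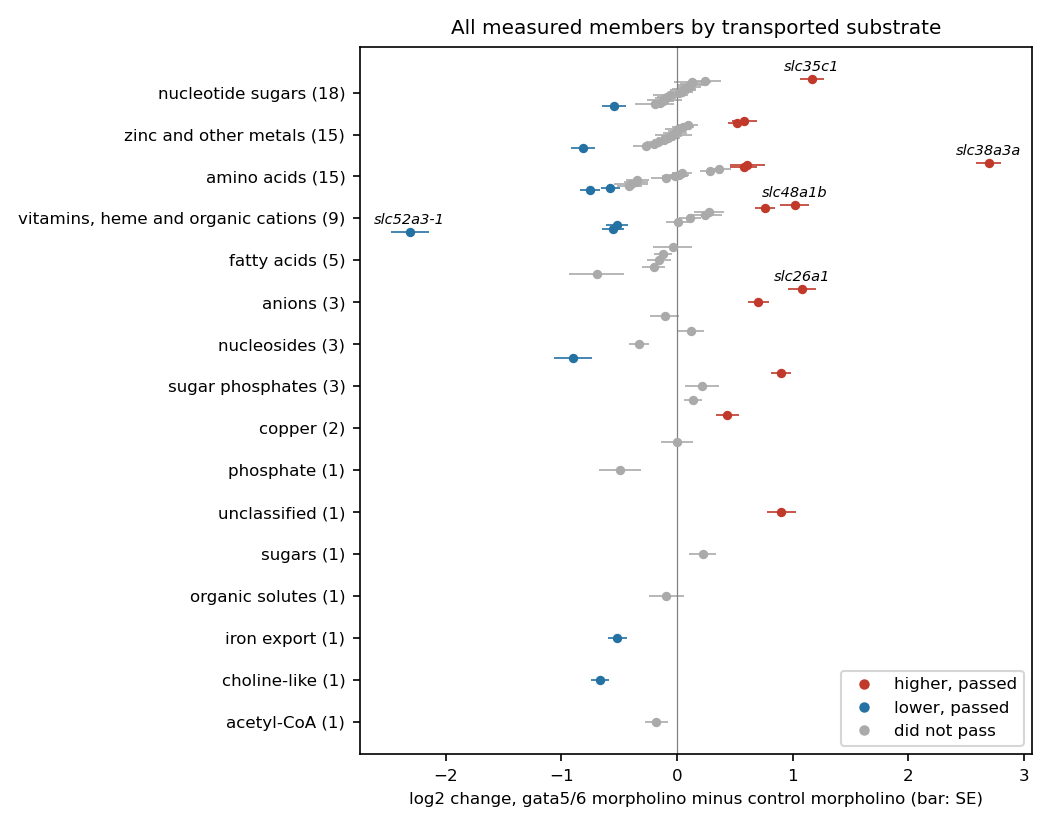
Log2 change (gata5/6 morpholino minus control morpholino, x axis) of each of the 80 measured genes, by the substrate class of its family (y axis, number of genes in brackets). Bars are standard errors; red genes rose, blue genes fell and grey genes did not pass. The largest changes are slc38a3a at 2.70 and slc52a3-1 at -2.31, and most grey points lie near 0.

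Among the 15 measured genes of families classed as amino acid transporters, 3 rose, 2 fell and 10 did not pass (median log2 change -0.02). Thus 33.3% passed, against 15.0% of all genes. The 10 lay between -0.41 and 0.36, and 11 of the 15 genes had an unadjusted p under 0.05, as had 32 of all 80 members (40%) and 31.8% of all genes tested. The glutamine and histidine transporter gene slc38a3a, whose mammalian counterpart SNAT3 works in liver, kidney and brain, had the largest rise of all members. Its scaled signal was 55.9 and 56.3 on the gata5/6 morpholino arrays, against 9.68, 8.22 and 8.12 on the control arrays. Both gata5/6 morpholino arrays stood far above every control array, and they differed little from each other. On the log2 scale the means were -0.83 ± 0.01 (SD, n = 2) and -3.53 ± 0.14 (SD, n = 3), a 6.49-fold rise (log2 change 2.70, SE 0.108, limma adjusted p = 0.000104). With a normexp background correction fitted without spots dimmer than their background, an alternative chosen after seeing the data, the log2 change was 1.67 and the call held.

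The other risen genes of this class were slc38a2 and slc38a11. The gene slc38a2 encodes SNAT2, a sodium-coupled importer of neutral amino acids that mammalian cells induce when amino acids are scarce. It read 519 and 640.0 after gata5/6 morpholino and 383, 398 and 378 in controls (log2 change 0.58, adjusted p = 0.0246). The less studied slc38a11 was dim in both groups, at 6.72 and 6.24 against 4.51, 3.53 and 4.80 (log2 change 0.61, adjusted p = 0.0467). The gene that fell furthest was slc38a8a, a glutamine transporter gene whose human counterpart is linked to development of the fovea. Its signal was 3.36 and 3.55 on the gata5/6 morpholino arrays and 5.91, 5.54 and 5.96 on the control arrays (log2 change -0.75, adjusted p = 0.00378). The gene slc43a2b encodes a LAT4-type carrier that lets branched-chain and other large neutral amino acids pass down their gradient. It was 838 and 876 against 1287, 1251 and 1294 (log2 change -0.58, adjusted p = 0.00778), and its other probe gave -0.55. The paralog slc43a2a lay just outside the threshold, at 497 and 590.4 against 713, 704 and 744 (log2 change -0.41, adjusted p = 0.0521). The 2 paralogs thus leaned the same way, and their difference was not tested. In family 43, slc43a1b (-0.35, adjusted p = 0.0766), of a LAT3-type carrier, and slc43a3b (0.36, adjusted p = 0.0733) also had an unadjusted p under 0.05 without passing. Of the measured genes of the family, slc43a3b alone leaned higher. Classes follow the family number, so slc43a3b counts as an amino acid gene whatever its own cargo. The lysosomal genes did not pass. They were slc38a9, of an arginine sensor (-0.40, adjusted p = 0.128, with 0.38 from its other probe), slc38a7, of a glutamine carrier (0.02, adjusted p = 0.909), and slc66a1, of a cationic amino acid exporter (0.05, adjusted p = 0.752). The system A gene slc38a4 was level at -0.09 (adjusted p = 0.655), with -0.13 to 0.06 from its 4 other probes. For slc38a6 the brightest probe gave 0.28 (adjusted p = 0.0720) and did not pass, whereas 2 of its other probes passed in the test over 30616 probes, at 0.49 and 0.75. Without control replicate 1, 2 or 3 the calls of slc38a2 (0.56 to 0.60) and slc38a11 (0.48 to 0.70) were lost. That of slc43a2b was lost without control replicate 1 or 3 (-0.59 to -0.57 over the 3 omissions). Fits without a gata5/6 morpholino replicate keep a single array of that group, so no call is drawn from them. With a separate variance for each group the calls of slc38a2, slc38a11 and slc43a2b were also lost, and with the refitted normexp those of slc38a11 (0.28) and slc38a8a (-0.10) were.

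Of 9 measured genes of amino acid sensing and shortage, 1 was higher and 1 lower, where 7.84% and 7.17% of all genes tested were. The higher gene was rragca, which encodes a Rag GTPase that ties amino acids to mTOR (0.62, limma adjusted p = 0.00566). The lower gene was sesn1, which encodes the stress protein sestrin 1 (-0.41, limma adjusted p = 0.0304). The factor gene atf4a (0.26, adjusted p = 0.120) and its target asns, for asparagine synthetase (0.11, adjusted p = 0.415), did not pass. Their other probes gave 0.32 and 0.44.

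**Figure D2:**
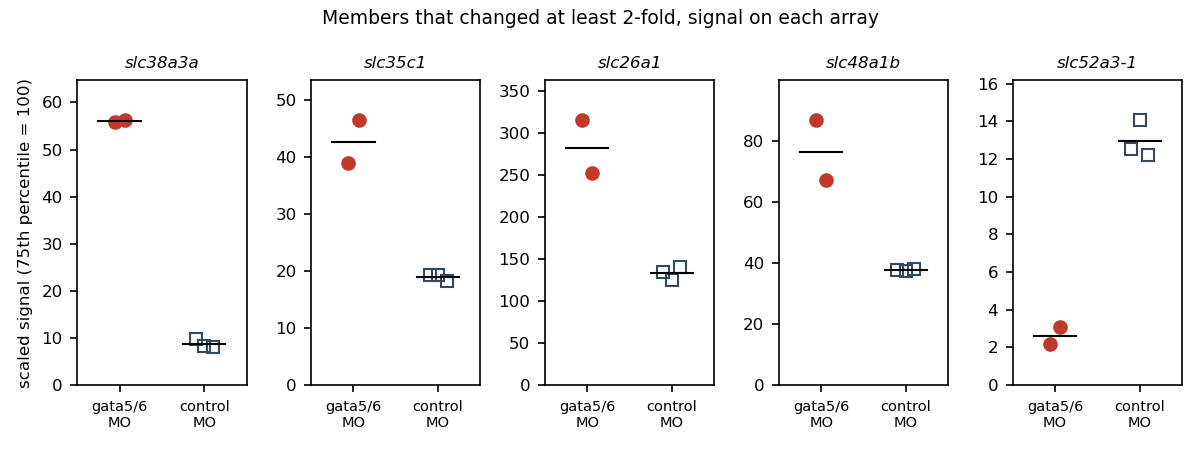
Scaled signal (75th percentile of the array = 100, y axis from 0, one scale per panel) of the 5 members that changed at least 2-fold, on each gata5/6 morpholino array (red circles) and each control morpholino array (open squares). Black lines are means taken on the log2 scale; no panel has overlapping groups.

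Transporters of vitamins, heme and organic cations held the largest fall. Of 9 measured genes, 2 rose, 3 fell and 4 did not pass (median log2 change 0.11). The class thus passed at 55.6%, against 15.0% of all genes, but it holds few genes. The riboflavin (vitamin B2) transporter gene slc52a3-1 had scaled signals of 2.19 and 3.104 on the gata5/6 morpholino arrays, against 12.5, 14.1 and 12.2 on the control arrays. The gata5/6 morpholino signals were close to the lowest signal counted as well above background on those arrays, 1.88 and 2.15. The log2 means were -5.26 ± 0.36 (SD, n = 2) and -2.95 ± 0.11 (SD, n = 3), a 4.96-fold fall (log2 change -2.31, SE 0.165, adjusted p = 0.000722). With the refitted normexp correction, whose offset of 50 shrinks changes of dim probes, the change was -0.72 and still passed. The other measured riboflavin transporter genes did not pass. The gene slc52a3-2b read 15.9 and 13.1 against 11.5, 11.00 and 13.3 (log2 change 0.28, adjusted p = 0.202), with overlapping groups, and slc52a2 gave 0.11 (adjusted p = 0.437). These differences between paralogs were not tested. None of the 3 measured genes of folate and riboflavin use passed by its brightest probe (limma). For mthfd1b (0.24) the other probes gave 0.19 and 1.18. Those of dhfr and flad1 gave -0.05 and -0.18 to 0.07.

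The heme transporter gene slc48a1b, whose product moves heme from endosomes and lysosomes into the cytosol, rose 2.03-fold. It read 86.9 and 67.3 on the gata5/6 morpholino arrays and 37.8, 37.3 and 38.2 on the control arrays (log2 means -0.39 ± 0.26 (SD, n = 2) and -1.41 ± 0.02 (SD, n = 3), change 1.02, SE 0.126, adjusted p = 0.00473). The control arrays were nearly alike, while the gata5/6 morpholino arrays differed from each other and stayed above them. Its paralog slc48a1a gave 0.01 (adjusted p = 0.971), a difference that was not tested. The gene slc47a1 encodes a MATE exporter, which expels organic cations and drugs in exchange for protons. It was 304 and 298 after gata5/6 morpholino and 188, 177 and 169 in controls (log2 change 0.76, adjusted p = 0.00385), and its other probe gave 0.94. The family 49 genes were both lower by their brightest probe. The lysosomal membrane protein gene slc49a4 read 115 and 131 against 181, 173 and 187 (log2 change -0.55, adjusted p = 0.0175), with -0.05 from its other probe. The gene slc49a3, earlier called mfsd7, read 4919 and 5112 against 7392, 6620.1 and 7534 (log2 change -0.52, adjusted p = 0.0202). Its other probes leaned the opposite way, at 0.16 and 0.28 without passing, so its direction depends on the probe. The proton-coupled folate transporter gene slc46a1 did not pass (0.24, adjusted p = 0.310). Without control replicate 1 or 3 the calls of slc49a3 and slc49a4 were lost, that of slc49a4 also without control replicate 2, with changes of -0.57 to -0.48 and -0.58 to -0.52 over the 3 omissions. Both were lost with a variance for each group and with the mean over probes (-0.03 and -0.30).

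Anion exchangers of family 26 rose in 2 of 3 measured genes, against 7.84% of all genes tested that rose. The sulfate and oxalate exchanger gene slc26a1 had signals of 315 and 252 on the gata5/6 morpholino arrays, against 134, 126 and 140.1 on the control arrays. The groups were well apart, with the wider spread in the gata5/6 morpholino group (log2 means 1.496 ± 0.23 (SD, n = 2) and 0.41 ± 0.08 (SD, n = 3)). This rise was 2.12-fold (log2 change 1.08, SE 0.123, adjusted p = 0.00363). A second probe of the gene gave 1.19. The gene slc26a5 encodes prestin, in mammals the motor protein of outer hair cells. It was 278 and 274 against 180.5, 168 and 160.2 (log2 change 0.70, adjusted p = 0.00556), with 0.47 from its other probe. With separate group variances its call was lost (adjusted p = 0.0665). The third gene, slc26a11, did not pass and its groups overlapped, at 34.04 and 32.7 against 37.6, 31.3 and 39.5 (log2 change -0.11, adjusted p = 0.585). Of the 3 genes that activate sulfate once it is in the cell, papss2a was higher (0.65, limma adjusted p = 0.00608) and the others did not pass. The papss2a signal was dim in both groups, at 5.25 and 5.52 against 3.30, 3.58 and 3.39.

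Family 35, the largest class, holds the nucleotide sugar transporters and related genes. Of 18 genes of family 35, 1 rose, 1 fell and 16 did not pass (median log2 change 0.03), so 11.1% passed, against 15.0% of all genes. The one that rose was slc35c1, which encodes the carrier that brings GDP-fucose into the Golgi for fucosylation of glycoproteins. It had 39.1 and 46.6 on the gata5/6 morpholino arrays, against 19.3, 19.4 and 18.3 on the control arrays, with no overlap. The log2 means were -1.23 ± 0.18 (SD, n = 2) and -2.40 ± 0.05 (SD, n = 3), a 2.24-fold rise (log2 change 1.17, SE 0.106, adjusted p = 0.00158). The gene slc35g2b, whose cargo is not established, was 8.76 and 9.66 against 13.3, 14.4 and 12.6 (log2 change -0.54, adjusted p = 0.0197), a call lost without control replicate 1, 2 or 3 (-0.59 to -0.49), with a variance for each group, and with the refitted normexp (-0.19). Among genes of this class that did not pass, slc35f2 had the largest change, at 57.8 and 44.3 against 41.8, 42.04 and 44.1 (log2 change 0.25, adjusted p = 0.253). The CMP-sialic acid carrier gene slc35a1 (-0.08, adjusted p = 0.546) and the UDP-galactose carrier gene slc35a2 (-0.15, adjusted p = 0.253) did not pass either. By their brightest probes, the 16 genes that did not pass lay between -0.19 and 0.25. Their other kept probes reached -0.48 (slc35e4) and 0.37 (slc35d1b), and none of these probes passed. Among the 16, slc35b2, known in zebrafish as pinscher and needed to bring activated sulfate into the Golgi, gave 0.02 (adjusted p = 0.888). Its other probes leaned the opposite way, at -0.27 and -0.06. For slc35d1a, of a carrier of UDP-sugars for chondroitin sulfate, the change was -0.06 (adjusted p = 0.820), with 0.09 from its other probe. None of 6 measured genes of nucleotide sugar synthesis passed (limma), among them gmds, which encodes the first enzyme of GDP-fucose synthesis (-0.21, adjusted p = 0.142).

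The sugar phosphate carrier gene slc37a4a, which encodes the glucose 6-phosphate translocase that feeds the last step of glucose production in the endoplasmic reticulum, rose 1.86-fold. Its signals were 677 and 622 on the gata5/6 morpholino arrays and 340.1, 359.5 and 346 on the control arrays (log2 change 0.90, adjusted p = 0.00198). The groups did not overlap, and a second probe gave 1.22. The related genes slc37a1 (0.21, adjusted p = 0.364), whose groups overlapped, and slc37a2 (0.14, adjusted p = 0.271) did not pass. The sugar carrier gene slc50a1 read 8.98 and 9.50 against 7.91, 8.81 and 7.09 (0.22, adjusted p = 0.245).

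Metal transporters are given gene by gene. Of 15 genes of the zinc families 30 and 39, 2 rose, 1 fell and 12 did not pass (median log2 change -0.03). That is 20.0% passing, against 15.0% of all genes. The zinc exporter gene slc30a1b, a ZnT1 gene of the cell surface, was 118 and 114 on the gata5/6 morpholino arrays, against 84.2, 80.1 and 77.7 on the control arrays (log2 change 0.52, adjusted p = 0.0132), and its other probe gave 0.57. Its paralog slc30a1a gave 0.05 (adjusted p = 0.738), a difference that was not tested. The zinc importer gene slc39a3 fell, with 67.7 and 72.7 against 121, 114 and 135 (log2 change -0.81, adjusted p = 0.00555) and -0.80 and -0.54 from its other probes. The ZIP-family gene slc39a9 rose, with 197 and 164 against 119.8, 118 and 122 (log2 change 0.58, adjusted p = 0.0189), although its other probe gave 0.18 and did not pass. The exporter gene slc30a10, in mammals a manganese exporter, did not pass at 29.03 and 28.1 against 36.3, 30.7 and 36.4 (-0.27, adjusted p = 0.158). It had the largest change of the 12 that did not pass, and these lay between -0.27 and 0.09. Close to 0 were the Golgi zinc importer gene slc30a7, at 848 and 831 on the gata5/6 morpholino arrays and 848, 834 and 835 on the control arrays (0.00, adjusted p = 0.995), and slc39a13 (-0.03, adjusted p = 0.913). The importer gene slc39a6, also called liv1, gave 0.09 (adjusted p = 0.519), and slc39a7, of a carrier that releases zinc from the endoplasmic reticulum, gave -0.08 (adjusted p = 0.632). Beside these, the metallothionein gene mt2, whose product binds zinc and which zinc induces through the factor MTF1, was 1696 and 1247 on the gata5/6 morpholino arrays, against 402, 371 and 293 on the control arrays. This was a 4.13-fold rise (log2 change 2.05, adjusted p = 0.00166), with 1.88 and 2.26 as the lowest and highest change of its other probes, while mtf1 itself did not pass (-0.16, adjusted p = 0.384). The calls of slc30a1b (0.50 to 0.55) and slc39a9 (0.57 to 0.60) were lost without control replicate 1, 2 or 3 and with a variance for each group, under which that of slc39a3 was lost too (adjusted p = 0.0775). The slc39a9 call was also lost with the mean over probes (0.38).

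The copper importer gene slc31a1, the main route of copper into cells, was 1804 and 2128 on the gata5/6 morpholino arrays, against 1463, 1455 and 1425 on the control arrays (log2 change 0.44, adjusted p = 0.0390). All 5 of its other probes leaned the same way, at 0.35 to 0.48. The related slc31a2 had overlapping groups (28.2 and 21.7 against 26.7, 23.2 and 24.2) and did not pass (adjusted p = 0.987). Ferroportin, slc40a1, was lower, with 89.4 and 90.8 on the gata5/6 morpholino arrays and 126, 126 and 135 on the control arrays (log2 change -0.51, adjusted p = 0.0135). Its other kept probes gave -0.75 and -0.57. The iron and heme list had 6 measured genes, of which ftr82 (-0.29, adjusted p = 0.106) is a tripartite-motif family gene and not one of iron handling. On that list hmox1a, which encodes the heme-degrading enzyme heme oxygenase 1, fell (-0.61, limma adjusted p = 0.0208). The ferritin gene fth1a (0.20, adjusted p = 0.308) and the ferroxidase gene cp (0.81, adjusted p = 0.0754) did not pass. The brightest cp probe was dim, at 4.25 and 5.63 against 2.88, 3.54 and 2.13. It was well above background on both gata5/6 morpholino arrays and on 2 of the 3 control arrays. In zebrafish, ferroportin is known from the yolk syncytial layer. The 3 measured yolk syncytial layer and yolk-related genes were apobb.1, apoa4b.1 and mttp. They summed to 9493 to 10052 on gata5/6 morpholino arrays and 14799 to 15393 on control arrays, mostly from apobb.1. Of the 3, mttp did not pass (limma adjusted p = 0.0536). The part of these genes in the slc40a1 value was not tested. The calls of slc31a1 (0.43 to 0.44) and slc40a1 (-0.53 to -0.48) were lost without control replicate 1, 2 or 3 and with a variance for each group. That of slc31a1 was lost also with quantile normalization (0.38), the authors' values (0.37), no filter on dim probes (adjusted p = 0.0628) and the replicate block (adjusted p = 0.0856).

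No fatty acid transport protein gene of family 27 passed among 5 measured (limma), where 15.0% of all genes tested passed. Of the 5, 1 had an unadjusted p under 0.05, and all 5 log2 changes lay below 0, from -0.69 to -0.04. That 1 gene was slc27a4, which encodes a carrier that takes up long-chain fatty acids and activates them. It read 19.96 and 35.8 on the gata5/6 morpholino arrays, against 43.6, 42.9 and 43.3 on the control arrays (log2 change -0.69, SE 0.238, adjusted p = 0.110). Both gata5/6 morpholino arrays were lower than every control array, but they were far apart. Without gata5/6 morpholino replicate 2 the change was -1.12, and without replicate 1 it was -0.27. Each of these fits keeps 1 gata5/6 morpholino array, so no call is drawn from them. With the replicate number as a block, which drops control replicate 3, the limma adjusted p of slc27a4 was 0.00233. The labels name nothing that a number shares, so this value does not replace the main result, which did not pass. The other family members were nearer 0, with slc27a1a at -0.20, slc27a2a, of a very long-chain acyl-CoA synthetase, at -0.16, and slc27a6 at -0.12. The probe of slc27a1b (-0.04) was well above background on 2 of the 3 control arrays and on both gata5/6 morpholino arrays. Genes that activate or bind fatty acids inside the cell fell in 5 of 11 measured, against 7.17% of all genes tested. This list was chosen with earlier results of these data known. The 5 were the binding protein gene fabp2 (-2.68, adjusted p = 0.000147) and the acyl-CoA synthetase genes acsl5 (-1.61, adjusted p = 0.000387), acsl4b (-1.14, adjusted p = 0.00273), acsl1b (-0.67, adjusted p = 0.0418) and acsl1a (-0.44, adjusted p = 0.0422). For fabp2 the signal was 2154 and 1691 after gata5/6 morpholino, against 12158, 12399 and 12154 in controls.

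Nucleoside carriers were represented by 3 genes, of which 1 fell, where 7.17% of all genes tested were lower. The sodium-coupled nucleoside importer gene slc28a1 was dim in both groups, at 3.99 and 4.21 against 8.84, 6.18 and 8.20 (log2 change -0.90, adjusted p = 0.0197). Its second probe gave -0.33 and did not pass. The call did not survive leaving out control replicate 1 (-0.80) or 3 (-0.85), the refitted normexp (-0.23), the mean over probes (-0.61) or a variance for each group. Without gata5/6 morpholino replicate 1 the change was -0.86, a fit with a single gata5/6 morpholino array, so no call is drawn from it. The equilibrative carrier gene slc29a2 did not pass, with 40.4 and 38.4 against 47.7, 52.6 and 48.2 (-0.33, adjusted p = 0.0642). The choline transporter-like gene slc44a4 was 3.42 and 3.37 on the gata5/6 morpholino arrays, against 5.30, 5.29 and 5.55 on the control arrays (log2 change -0.66, adjusted p = 0.00452), and with the refitted normexp its change was -0.15 and did not pass. None of 7 measured genes of nucleoside use and of 4 of choline use passed (limma), where 15.0% of all genes tested passed. Classes with a single measured gene that did not pass were acetyl-CoA (slc33a1, -0.18, adjusted p = 0.272), organic solutes and bile acids (slc51a, -0.09, adjusted p = 0.716) sugars (slc50a1, given above) and phosphate. The phosphate class held slc34a2aas, an antisense RNA gene that the symbol rule takes in, at 2.74 and 3.90 against 5.25, 4.29 and 4.32 (-0.49, adjusted p = 0.124).

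The gene slc67a1, earlier called slc22a18 and without an established cargo, was higher by its brightest probe, with 97.99 and 80.5 on the gata5/6 morpholino arrays and 50.9, 43.4 and 48.5 on the control arrays (log2 change 0.90, adjusted p = 0.00737). Its other probe gave -0.32 and did not pass, and with the mean over both probes the change was 0.29 (adjusted p = 0.133). The call was lost with a variance for each group as well. Of the 23 genes that passed, 14 had further probes above the signal condition, and in 12 of the 14 every such probe leaned the same way. The exceptions were slc49a3 and slc67a1. Of the 21 further probes, 18 leaned the way of their gene and 10 passed in the test over 30616 probes. In that limma test the brightest probes of slc31a1 (adjusted p = 0.0563) and slc38a11 (adjusted p = 0.0588) did not pass. No member had probes that passed in opposite directions. The other 9 genes that passed, among them slc38a3a, slc52a3-1, slc35c1 and slc48a1b, rest on 1 kept probe each.

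**Figure D3:**
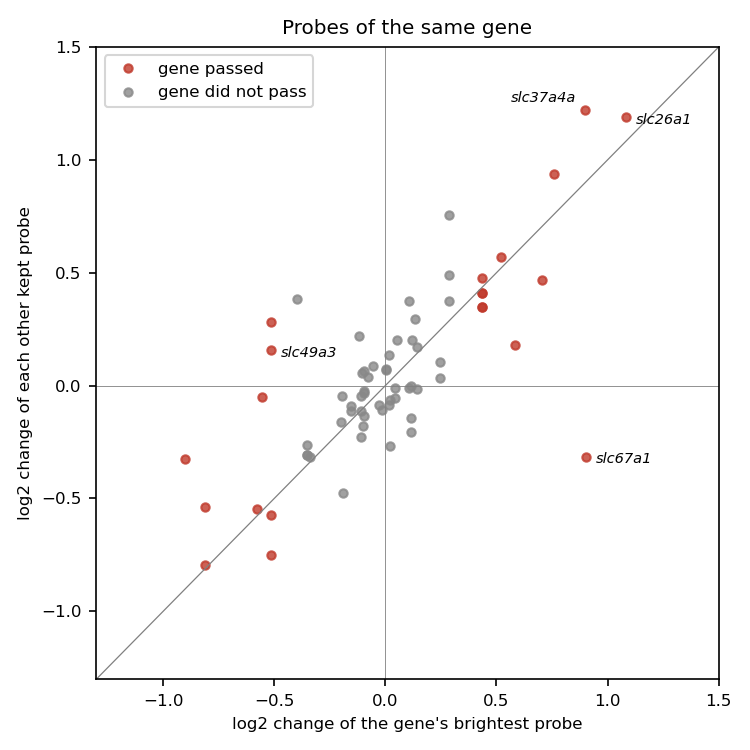
Log2 change (gata5/6 morpholino minus control morpholino) of the brightest probe of a gene (x axis) against that of each of its other kept probes (y axis), 68 probes in all; the diagonal marks equal values. Red points belong to genes that passed, and the 2 slc49a3 probes and the slc67a1 probe lie across 0 from their brightest probe.

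Spread within groups rests on 2 and 3 arrays. The median SD per gene on the log2 scale was 0.0887 in the gata5/6 morpholino group and 0.0802 in the control group, and 42 of the 80 genes had the larger SD in the gata5/6 morpholino group. An SD from 2 arrays tends to come out lower than one from 3, so these values do not show equal spread. With a variance for each group, set by a weight per group that all genes share, 14 of the 23 calls were lost. Under it 5.07% of all genes passed. A few members, slc27a4, slc48a1b and slc52a3-1 among them, had gata5/6 morpholino arrays that differed visibly from each other.

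**Figure D4:**
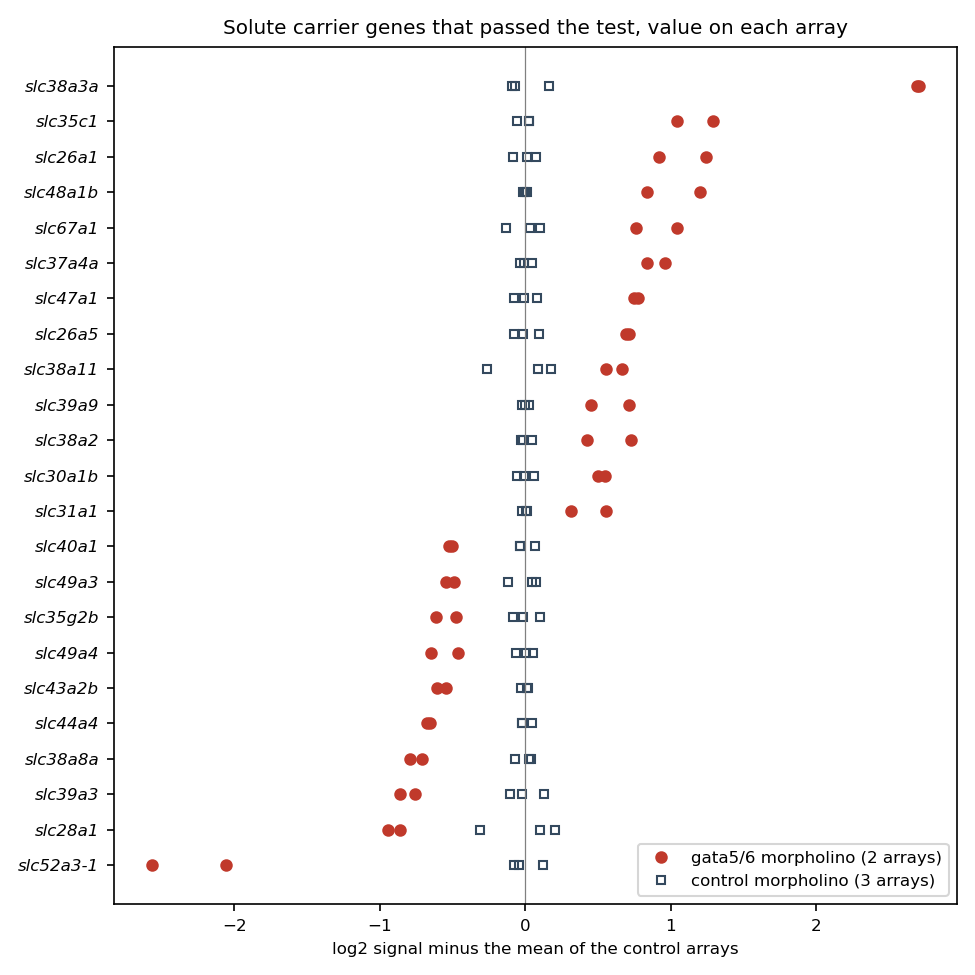
Log2 signal minus the mean of the control arrays (x axis) for the 23 genes that passed (y axis, ordered by change), on the 2 gata5/6 morpholino arrays (red circles) and the 3 control morpholino arrays (open squares). As for 50.8% of all genes tested, the groups do not overlap for these 23, which were chosen for passing, and slc38a3a and slc52a3-1 lie farthest from the controls.

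Calls held unevenly across the ways of processing the arrays. For 7 of the 23 genes, the call held in all 14 settings other than a normexp background correction fitted on all spots, and these were slc38a3a, slc35c1, slc26a1, slc48a1b, slc37a4a, slc47a1 and slc52a3-1. The genes that kept it in the fewest settings were slc38a11 (5 of 14) and slc31a1 (6 of 14). The 14 include the fits that keep a single gata5/6 morpholino array, which is then assumed to vary like the controls. No call held when normexp was fitted on all spots, where 0.389% of all genes passed. That fit includes 31 spots dimmer than their background on the array of gata5/6 morpholino replicate 2 (lowest -4.5 intensity units). It also includes 5 on that of control replicate 3 (lowest -11992.5). With all such spots left out of the fit, 18 of the 23 calls held.

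**Figure D5:**
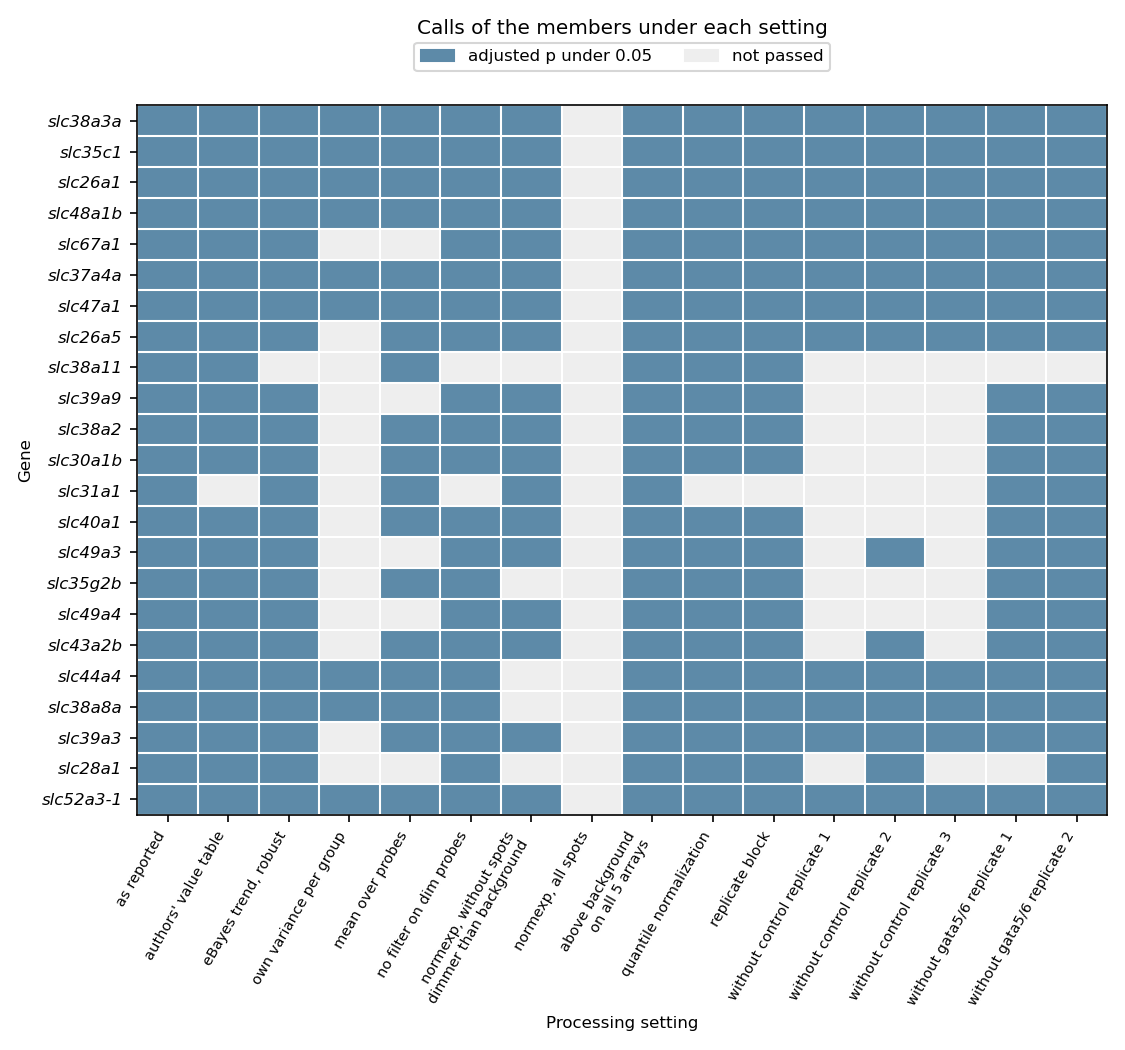
Whether each of the 23 genes (y axis, ordered by log2 change) had an adjusted p under 0.05 (blue) or not (grey) as reported and under each processing setting (x axis). The rows of slc38a3a, slc35c1, slc26a1, slc48a1b, slc37a4a, slc47a1 and slc52a3-1 are blue except under normexp fitted on all spots.

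The remaining 14 solute carrier genes on the array were not well above background on every array of either group. These were the anion exchanger genes slc26a3.1, slc26a3.2, slc26a4 and slc26a6l1, the monoamine carrier gene slc29a4a, the zinc carrier gene slc30a2, the vesicular GABA and glycine carrier gene slc32a1, and the phosphate carrier genes slc34a2a and slc34a2b. The rest were slc35a5, slc43a3a, the pigment cell gene slc45a2, slc45a3 and slc47a2.1. For 11 of them no probe was well above background on any array, while slc26a4 and slc29a4a had a probe above it on 1 array and slc32a1 on 3 arrays.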

How the data were processed

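RNA of whole zebrafish embryos was hybridised to 1-colour Agilent arrays, 2 for gata5/6 morpholino and 3 for control morpholino, grouped by the labels. The scanner intensity was background-subtracted and made with Agilent Feature Extraction 10.7.1.1, per the submitters' processing notes, and 10.7.3.1 per the file headers. The authors' deposited value table gives these arrays on a log2 scale with every array's median at 6.09, and correlated with the log2 scanner intensity at 0.9998 or above. It was used as an alternative, and no source used here says how it was centred.

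The processed intensity was taken to log2 and reduced by the log2 of each array's 75th percentile, which was 506 to 574 intensity units. Of 43603 probes, 52 with outlier flags were left out, and 30616 were kept because they exceeded background clearly on all arrays of either group or both. Gene symbols came from RefSeq accessions of the probes through a current RefSeq gene table (assembly GRCz12tu, used for names only), and 18005 probes had none. Names given on the array itself were not used, so solute carriers without a matched accession were not counted. Genes were tested on their brightest kept probe with limma 3.58.1 (lmFit and eBayes, R 4.3.3), residual degrees of freedom 3. The procedure was also run on simulated data with the same spread in both groups and true changes of at least 2-fold. Such data do not cover unequal spread, slide or smaller changes. Precision is limited by the number of arrays.

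The rule for names took every member that passed, the member with the largest change among those that did not pass in each substrate class, members whose probes passed in opposite directions, gata4, gata5, gata6 and substrate-partner genes that passed. The other genes that did not pass, slc38a6 and the genes given for marker lists were added after their values were seen. The members and lists were chosen with earlier results of these data known. The alternatives were the authors' values, normexp (offset 50), quantile normalization, 2 other dim-probe filters, the mean over probes, trend and robust eBayes, a variance for each group, a replicate block and leaving out each array. The variance for each group came from array weights estimated per group and shared by all genes, not from each gene's own spread. No nucleotide sequence of a probe or gene was analysed here.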

Additional observations from a re-analysis of the deposited data

How the results depend on the processing

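The counts of 13 higher and 10 lower solute carrier genes lay within 1.5 times of these values with the authors' values, trend and robust eBayes, the mean over probes, both other filters, quantile normalization and the normexp refitted without spots dimmer than their background. In those settings 23.8% to 30.4% of members passed, against 9.98% to 16.3% of all genes. With a variance for each group the counts were 6 higher and 3 lower (11.25% of members against 5.07% of all genes). With normexp fitted on all spots they were 0 and 0, with 15 members at an unadjusted p under 0.05. Only 0.389% of all genes passed there, so these counts of 0 are not particular to the members. Leaving out 1 array gave 8 to 15 higher and 4 to 20 lower. Without gata5/6 morpholino replicate 2 they were 15 and 20, so 43.2% of members passed against 47.8% of all genes, and the members' share was then below that of all genes, whereas as reported it was 28.8% against 15.0%. They were 8 and 4 without control replicate 1 (15.0% of members against 7.13% of all genes) or 3 (14.8% against 6.33%), and 8 and 7 without control replicate 2 (18.8% against 7.05%). Where gata5/6 morpholino keeps a single array, that array is assumed to vary like the controls. With the replicate number as a block, which drops control replicate 3, the counts were 12 and 12. Deviations from the group means of samples with the same number correlated at 0.12 (number 1) and 0.20 (number 2). Control replicate 3 gave 0.09 with gata5/6 morpholino replicate 1 and -0.09 with replicate 2. With 2 gata5/6 morpholino arrays the deviations of 1 mirror those of the other, so these values are not independent checks. The labels name nothing that a number shares, so no pairing was taken. Over 15 settings and 23 genes, 259 of 345 calls were kept, 85 were lost and 1 turned its sign. Signs turned with normexp fitted on all spots for slc38a11 (-0.17), slc31a2 (-0.18), slc37a1 (-0.21), slc50a1 (-0.35) and slc52a3-2b (-0.14), of which slc38a11 alone had passed as reported. For slc31a2, reported at 0.0041, the sign also turned with the replicate block (-0.0099) and over the left-out arrays, where it ranged over -0.19 to 0.19. For slc51a, reported at -0.09, it turned with the refitted normexp (0.057) and over the left-out arrays (-0.33 to 0.15). The cause of these changes was not tested. Dim genes such as slc52a3-1, slc38a8a, slc44a4, slc28a1 and slc38a11 lie near background, where the size of a change depends on the background correction.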
